A study of Danio rerio with 35 samples.

Results

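Genes of cholesterol and fatty acid synthesis were read in the messenger RNA of whole hearts from adult zebrafish. The members were 36 gene symbols of the textbook pathways, chosen with earlier results of these data known. The deposited count table, with 14781 genes, holds 33 of them. These are 20 genes of the sterol branch and 13 of the fatty acid branch, and 30 of the 33 had enough counts to be tested. The other 3 symbols, scap, acly and fasn, were not analysed here, so the enzyme that assembles the fatty acid chain has no value.

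The RNA libraries came from klf1 overexpressing hearts (4 libraries) and from WT hearts (4 libraries), and the values are the authors' gene counts. The protein product of klf1 is a Krüppel-like transcription factor best known for its work in red blood cell precursors, and the series' title gives cardiomyocyte renewal in the adult as its subject. The labels do not give the promoter, the cells or the duration of klf1 overexpression, nor the strain, age, sex or the number of fish behind a library. The other 27 of the 35 samples, which profile chromatin and DNA methylation, were not analysed here.

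Cholesterol is built from acetyl-CoA. The mevalonate steps, with HMG-CoA reductase as the controlled step, make isoprenoid units that are joined to farnesyl diphosphate; squalene synthase then commits the chain to sterols, and a series of enzymes from squalene epoxidase onward closes and trims the rings. Fatty acids also start from cytosolic acetyl-CoA, which acetyl-CoA carboxylase activates, and finished chains are lengthened by ELOVL enzymes and given double bonds by desaturases. Transcription of both branches is known to be driven by the SREBP factors, encoded by srebf2 mainly for sterols and srebf1 mainly for fatty acids. INSIG proteins hold the SREBP precursors in the endoplasmic reticulum when sterols are plentiful. An adult heart mainly burns fatty acids and takes up much of its lipid from the blood.

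The libraries held 9829896 to 13083853 counts. Values are CPM, the share of a library's counts after TMM scaling. Log2 fold changes, klf1 over WT, come from edgeR's quasi-likelihood test over all 10493 tested genes, and a gene was called where its Benjamini-Hochberg adjusted p was below 0.05. In that test 61.6% of all genes were called, 32.2% higher and 29.4% lower in klf1 hearts, and 57% had no overlap in CPM between the genotypes. klf1 itself averaged 646 ± 63.7 CPM in klf1 hearts and 216 ± 78.9 CPM in WT hearts (SD, n = 4 libraries each). Nothing in the labels says that libraries of a genotype came from separate fish, so the p-values measure the spread between libraries, which may be technical.

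The RNA of cell type marker genes differed between the genotypes too. The summed level of 9 cardiomyocyte markers was 30518 to 48080 CPM in klf1 libraries and 211413 to 250794 CPM in WT libraries, with 9 of 9 called lower. For 12 macrophage and granulocyte markers the sum was 1398 to 1877 CPM in klf1 libraries and 316 to 738 CPM in WT libraries, with 11 of 12 called higher. For 11 cell cycle genes it was 950 to 1254 CPM in klf1 libraries and 56.0 to 95.8 CPM in WT libraries, with 11 of 11 called higher. Of 10 tested fibroblast and epicardial markers 7 were called higher (sums of 2283 to 4932 CPM in klf1 and 1175 to 1674 CPM in WT libraries). Of 10 hepatocyte markers 2 had enough counts to be tested: tfa averaged 47.9 ± 22.1 CPM in klf1 and 55.2 ± 10.8 CPM in WT hearts and was not called, and cp averaged 12.9 CPM in klf1 and 0.240 CPM in WT hearts. The liver fatty acid binding protein fabp10a averaged 0.128 CPM in klf1 and 0.242 CPM in WT hearts, where 3 counts are worth 0.179 to 0.378 CPM in a library. Counts summed over klf1 and over WT libraries were 8 and 8 for fabp10a, 26 and 26 for ambp, 15 and 5 for apoa1b and 13 and 0 for fga. They were 3 and 0 for ttr, 3 and 1 for fgb, and 0 in both genotypes for serpina1 and apoa2. These genes were too thin to be tested. Of 5 listed adipocyte markers with counts, 3 were tested: fabp11a (660 ± 94.8 CPM in klf1 and 760 ± 89.5 CPM in WT hearts) and cidec (1.52 ± 0.66 CPM in klf1 and 1.80 ± 1.18 CPM in WT hearts) were not called, and lepb averaged 2.49 CPM in klf1 and 0.0306 CPM in WT hearts. Of the untested ones, adipoqb had 0.0333 CPM in klf1 and 0.121 CPM in WT hearts, and lepa 0.149 CPM in klf1 and 0 CPM in WT hearts. No WT library of cp, lepb or the cell cycle gene aurkb reached the minimum count, so each could enter the test only as higher in klf1 hearts. In these whole hearts fewer cells of a type and less RNA per cell cannot be told apart, and the part of cell makeup in the results below was not tested.

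With TMM scaling both branches held members called higher and members called lower, as all tested genes did. These calls depended on the scaling, as given below. In the sterol branch 6 of 19 tested members were higher and 3 lower in klf1 hearts, with a median log2 fold change of 0.33, and in the fatty acid branch 5 of 11 were higher and 3 lower, with a median of -0.13. The median of all tested genes was 0.03. The sterol share of 31.6% higher was near the 32.2% of all genes, and its 15.8% lower was under the 29.4% of all genes. The fatty acid shares were 45.5% higher and 27.3% lower. As 7 of the 30 tested members passed the filter on low counts with fewer than 4 WT libraries over the minimum, and all 4 klf1 libraries over it, and sqlea with no WT library over it, these counts do not describe the 33 genes as a set. The summed sterol branch stood at 253 ± 11.9 CPM in klf1 hearts and 265 ± 18.3 CPM in WT hearts (SD, n = 4 each), ranges that overlapped. The summed fatty acid branch stood at 596 ± 27.7 CPM in klf1 hearts and 459 ± 46.2 CPM in WT hearts, ranges that did not overlap, but acss2 and elovl1b carried the difference. Without these 2 genes the other 11 summed to 196 ± 17.5 CPM in klf1 hearts and 271 ± 44.9 CPM in WT hearts, ranges that overlapped slightly.

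**Figure D1:**
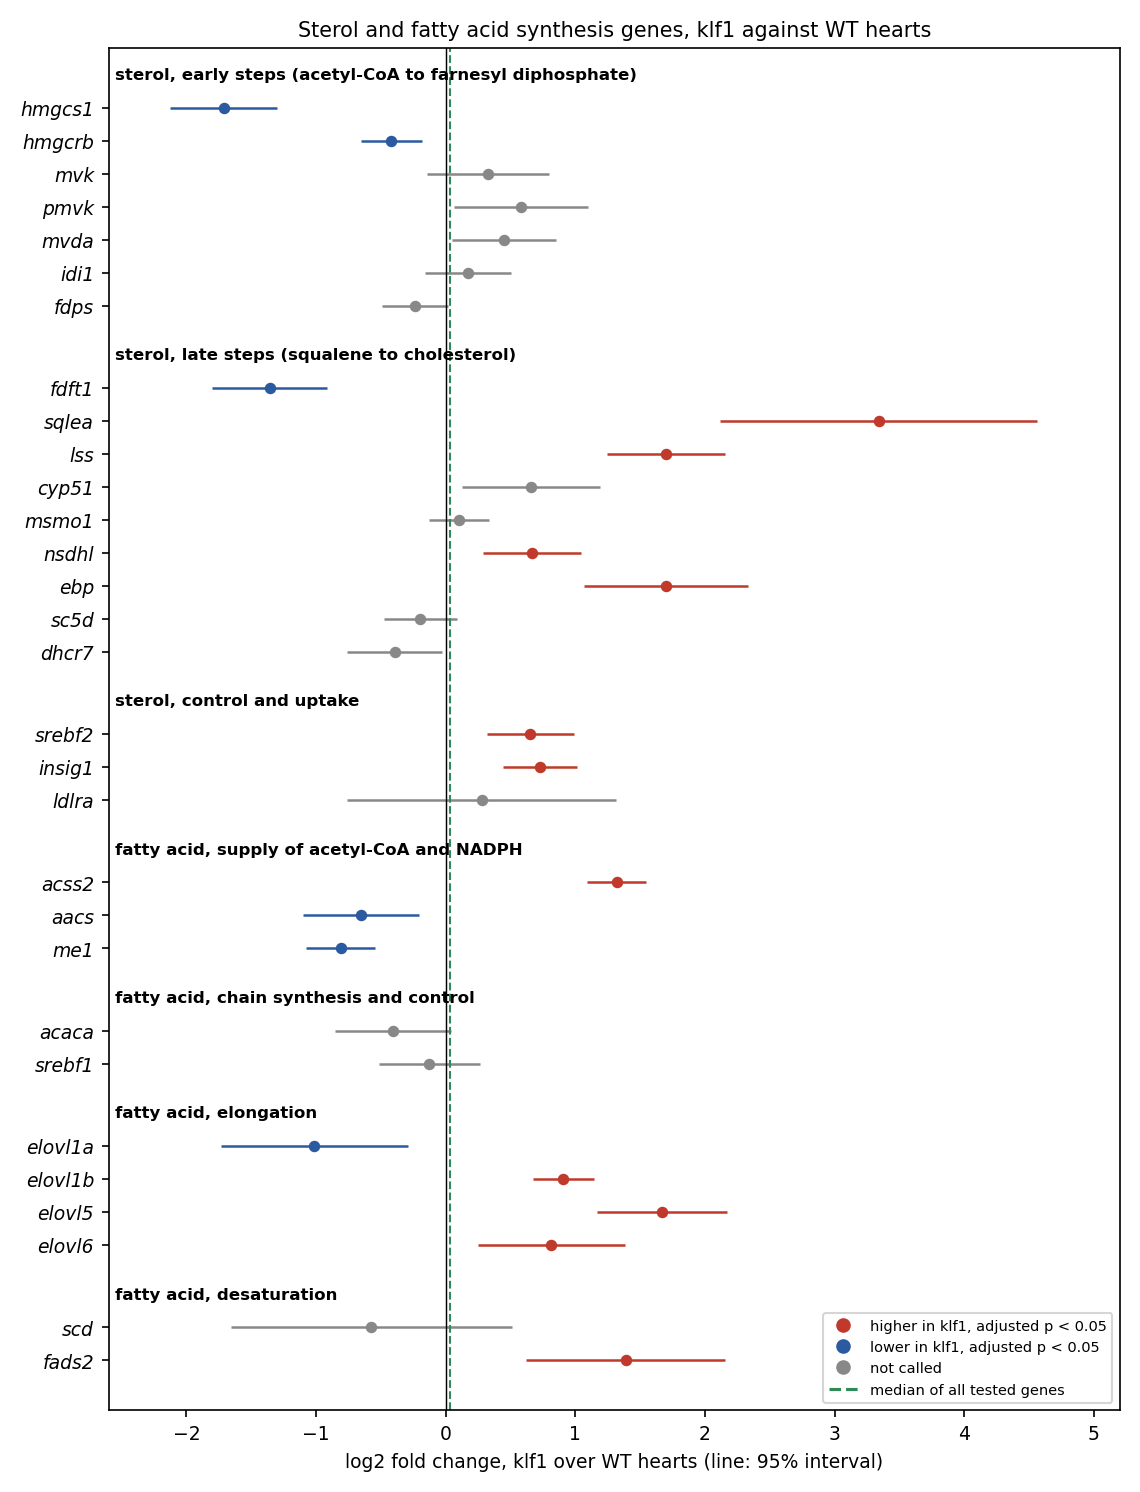
Log2 fold change of klf1 over WT hearts (x axis) for the 30 tested genes, grouped by step of the pathway; points are edgeR estimates, lines are 95% intervals for each gene alone, not adjusted, and colour gives the call after adjustment over all genes. In the sterol branch hmgcs1 (-1.71) and fdft1 (-1.36) lie far to the left and sqlea (3.34), lss (1.70) and ebp (1.70) far to the right, while the dashed median of all genes is at 0.03.

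At the entry of the mevalonate pathway hmgcs1 and hmgcrb were lower in klf1 hearts. hmgcs1, which encodes the cytosolic HMG-CoA synthase, had 8.56, 13.2, 14.2 and 10.2 CPM in klf1 libraries 1 to 4, against 50.9, 33.1, 27.7 and 39.7 CPM in WT libraries 1 to 4. The lowest WT library was above the highest klf1 library, and the log2 fold change was -1.71 ± 0.21 (SE; edgeR adjusted p = 2.07e-05). hmgcrb, an HMG-CoA reductase, had 35.3, 30.5, 33.4 and 30.6 CPM in klf1 libraries and 47.2, 43.8, 36.8 and 45.8 CPM in WT libraries. Its groups did not overlap either, and its fall was smaller (-0.42 ± 0.12, adjusted p = 0.00943); scaled by library totals it read 0.29 and was not called.

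The paralog hmgcra ran the other way, at the limit of detection. It had 5, 12, 15 and 10 counts in klf1 libraries and 1, 0, 0 and 0 counts in WT libraries, too few to enter the test. Over summed counts the klf1 level was 23.1 times the WT level, with an exact 95% counting interval of 3.93 to 935, which covers counting error only. Because 3 WT libraries had 0 counts, the size of any ratio of hmgcra to hmgcrb within a library rests on the pseudocount, and none is given. Reads of such paralogs could be split between copies in the authors' counting, so paralog values are uncertain.

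The middle of the mevalonate pathway gave no calls. The kinases mvk and pmvk averaged 2.97 ± 0.57 and 3.33 ± 0.80 CPM in klf1 hearts, against 2.36 ± 0.41 and 2.21 ± 0.40 CPM in WT hearts (SD, n = 4 each). mvda, the decarboxylase that yields the isoprenoid unit, read 5.84 ± 1.29 CPM in klf1 hearts and 4.27 ± 0.58 CPM in WT hearts. Their log2 fold changes of 0.33, 0.58 and 0.45 had adjusted p-values of 0.260, 0.0731 and 0.0751 by edgeR, and without klf1 library 4 pmvk (0.75) and mvda (0.56) were called higher, as was mvda with upper-quartile scaling (0.53). idi1, which interconverts the isoprenoid units and has the most counts of the early genes, had 56.7, 35.9, 45.9 and 41.4 CPM in klf1 libraries and 41.7, 41.8, 46.1 and 29.9 CPM in WT libraries, and the groups overlapped. fdps, which builds farnesyl diphosphate, read 31.7, 31.5, 26.8 and 26.3 CPM in klf1 libraries and 37.2, 31.1, 39.0 and 29.8 CPM in WT libraries, with a log2 fold change of -0.24 ± 0.13. The 95% intervals of the log2 fold change span -0.16 to 0.51 for idi1 and -0.50 to 0.02 for fdps.

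The committed step to sterols was lower, and several steps that follow it were higher. fdft1, squalene synthase, had 3.69, 8.67, 5.73 and 7.03 CPM in klf1 libraries against 15.3, 19.4, 13.6 and 16.4 CPM in WT libraries. The groups were apart, and the log2 fold change was -1.36 ± 0.23 (edgeR adjusted p = 0.000249). The next enzyme, the squalene epoxidase sqlea, had 13, 19, 15 and 14 counts in klf1 libraries and 0, 1, 0 and 2 counts in WT libraries. That is 11.2 times the WT level over summed counts, with an exact 95% counting interval of 3.66 to 55.8 (edgeR adjusted p = 0.000576). Because it passed the filter on low counts through the klf1 libraries alone, it could enter the test only as a gene higher in klf1 hearts.

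lss, the lanosterol synthase that closes the rings, had 4.35, 4.40, 4.83 and 3.81 CPM in klf1 libraries, against 1.5, 1.26, 1.57 and 0.980 CPM in WT libraries. ebp, the sterol isomerase, had 5.24, 3.42, 4.21 and 3.04 CPM in klf1 libraries and 0.575, 1.51, 1.69 and 1.1 CPM in WT libraries. The log2 fold changes were 1.70 ± 0.23 for lss (edgeR adjusted p = 5.07e-05) and 1.70 ± 0.32 for ebp (adjusted p = 0.000666), each with every klf1 library above every WT library. For the filter on low counts lss and ebp each had 3 WT libraries over the minimum, against all 4 klf1 libraries. nsdhl, a sterol dehydrogenase that helps to remove methyl groups, differed less, at 5.02, 6.44, 7.39 and 7.03 CPM in klf1 libraries and 3.68, 4.41, 4.83 and 3.43 CPM in WT libraries (0.66 ± 0.19, adjusted p = 0.00999). Its lowest klf1 library was just above its highest WT library.

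The other late genes were not called. The demethylase gene cyp51 averaged 5.09 ± 1.34 CPM in klf1 hearts and 3.23 ± 0.97 CPM in WT hearts (log2 fold change 0.66 ± 0.27, edgeR adjusted p = 0.0535), and it was called higher with upper-quartile scaling (0.73), with no filter on counts (0.68) and without WT library 1 (0.78), WT library 2 (0.77) or klf1 library 1 (0.80). msmo1, the sterol methyl oxidase with the most counts among the late genes, was nearly level, at 13.6, 15.8, 13.4 and 14.9 CPM in klf1 libraries and 13.2, 12.8, 14.0 and 13.7 CPM in WT libraries. Neither of the last members of the pathway was called: sc5d, a desaturase, averaged 8.0 ± 0.39 CPM in klf1 and 9.17 ± 1.22 CPM in WT hearts, and dhcr7, which makes cholesterol itself from its direct precursor, 9.06 ± 1.77 CPM in klf1 and 11.9 ± 2.34 CPM in WT hearts. dhcr7 was called lower without WT library 4 (log2 fold change -0.50).

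**Figure D2:**
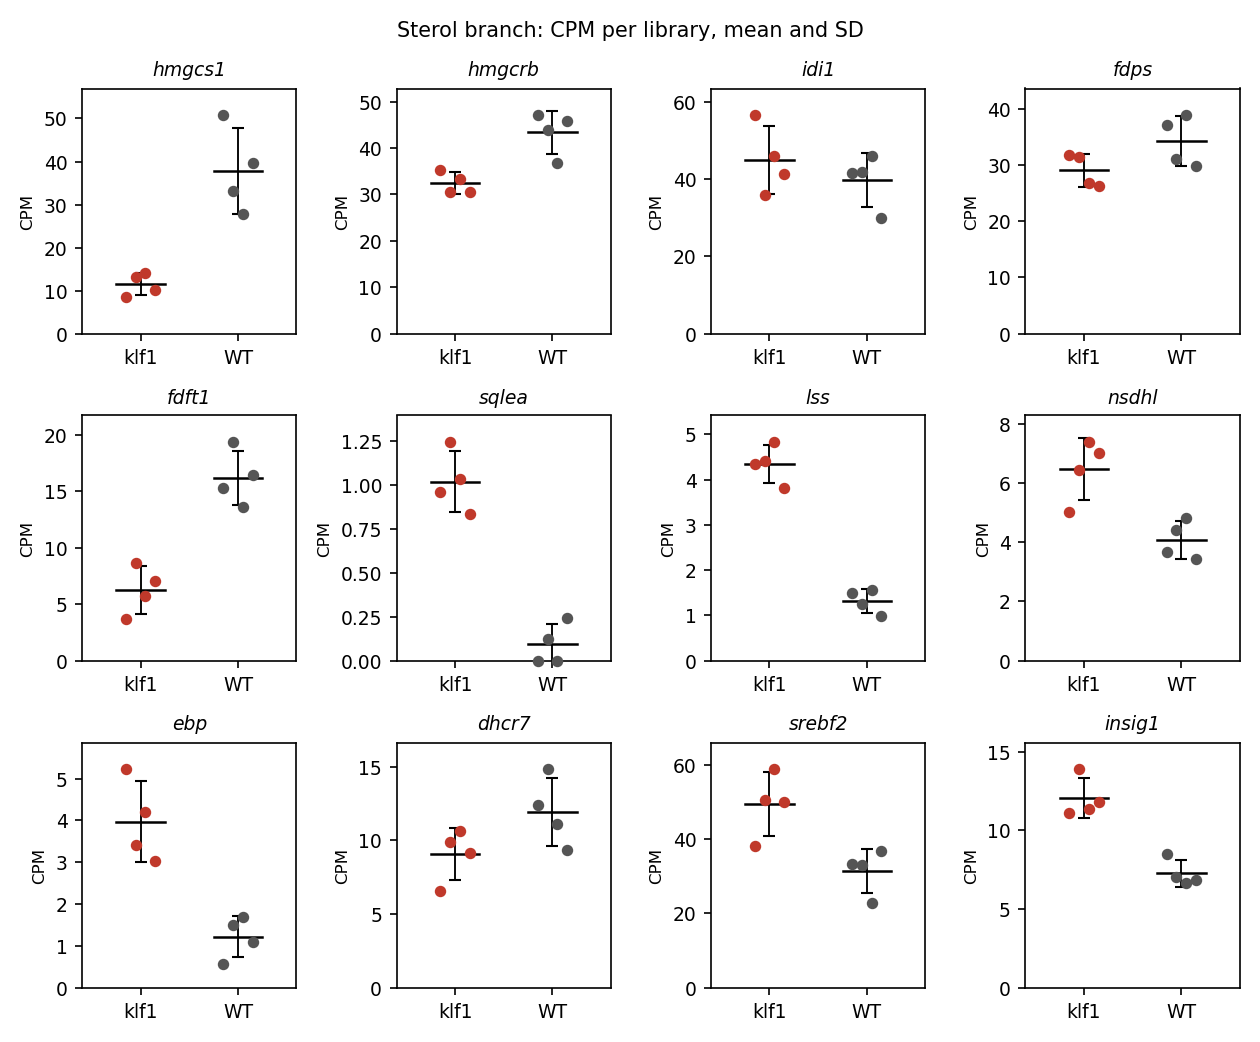
TMM-scaled CPM (y axis, from 0) of 12 sterol branch genes in each of the 4 klf1 and 4 WT libraries; points are libraries, horizontal bars the mean and whiskers the SD. The klf1 points of hmgcs1 and fdft1 lie under all WT points, those of sqlea, lss, nsdhl and ebp above them, and those of idi1 and dhcr7 overlap with them.

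Of the tested members for sterol control and uptake, srebf2 and insig1 were called higher and ldlra was not called. Other genes of SREBP control went both ways: mbtps1 was lower (log2 fold change -0.50), mbtps2 higher (0.37) and insig2 not called (-0.03). By library totals mbtps1 read 0.21 and was not called, while mbtps2 (1.085) and insig2 (0.69) were called higher. The mbtps2 groups overlapped, and its call was kept in 11 of 18 alternative settings. srebf2, the sterol-branch SREBP, had 38.1, 50.5, 58.9 and 50.1 CPM in klf1 libraries, against 33.1, 33.0, 22.8 and 36.8 CPM in WT libraries (log2 fold change 0.65 ± 0.17, edgeR adjusted p = 0.00578). The groups came close without overlap, with klf1 library 1 the lowest of its group and WT library 3 the lowest of the other. insig1, which retains SREBP and is itself a known SREBP target, had 11.1, 13.9, 11.4 and 11.8 CPM in klf1 libraries and 8.52, 7.05, 6.64 and 6.86 CPM in WT libraries (0.73 ± 0.15, adjusted p = 0.000953). ldlra, an LDL receptor that takes up cholesterol from lipoproteins, was too uneven to place, at 1.62, 1.45, 3.59 and 1.91 CPM in klf1 libraries and 4.14, 0.756, 0.603 and 1.47 CPM in WT libraries. WT library 1 exceeded all other libraries, and without it the log2 fold change of ldlra was 1.17 and called, against 0.28 ± 0.53 with it.

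In the fatty acid branch the 3 tested genes grouped as supply of acetyl-CoA and NADPH were all called, 1 higher and 2 lower. Among all tested genes 61.6% were called. The group is loose, as the product of aacs makes neither. acss2, which makes acetyl-CoA from acetate, had 188, 188, 171 and 202 CPM in klf1 libraries, against 70.7, 77.5, 80.7 and 71.1 CPM in WT libraries. The groups were far apart and tight within (log2 fold change 1.32 ± 0.12, edgeR adjusted p = 1.39e-06), and leaving out any 1 library kept the value between 1.28 and 1.37. me1, the cytosolic malic enzyme and a source of NADPH, went the other way with 49.6, 54.5, 36.2 and 40.9 CPM in klf1 libraries and 78.9, 79.6, 79.9 and 79.5 CPM in WT libraries. It fell by 0.81 ± 0.14 on the log2 scale (adjusted p = 0.000276), but by library totals it read -0.10 and was not called. aacs, which activates acetoacetate, had 31.1, 17.3, 17.8 and 12.4 CPM in klf1 libraries and 32.3, 31.0, 28.7 and 31.0 CPM in WT libraries. Library 1 of the klf1 group stood within the WT range while the other 3 were lower, and the fall of aacs (-0.65 ± 0.23, adjusted p = 0.0265) was -0.97 without that library and lost its call with upper-quartile scaling (-0.56, adjusted p = 0.0569) and without WT library 1 (-0.63), klf1 library 2 (-0.60), klf1 library 3 (-0.60) or klf1 library 4 (-0.48). By library totals aacs read 0.0559 and was not called. For ATP citrate lyase, aclya, which is no member and was looked up after values were seen, averaged 55.1 ± 6.63 CPM in klf1 and 41.4 ± 6.04 CPM in WT hearts (0.41 ± 0.14, adjusted p = 0.0235).

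The entry to chain synthesis and its regulator were not called. acaca, acetyl-CoA carboxylase, had 39.7, 59.6, 54.6 and 58.4 CPM in klf1 libraries and 84.0, 88.5, 38.6 and 70.5 CPM in WT libraries. WT library 3 fell below all klf1 libraries, and without it acaca was called lower (log2 fold change -0.62, edgeR adjusted p = 0.00507) in place of -0.41 ± 0.23 (adjusted p = 0.144). srebf1, the fatty acid-branch SREBP, had 33.0, 49.7, 51.9 and 56.9 CPM in klf1 libraries and 55.9, 62.3, 35.3 and 55.5 CPM in WT libraries, with a log2 fold change of -0.13 ± 0.20. The same 2 libraries, klf1 library 1 and WT library 3, were the lowest of their groups for acaca, srebf1 and srebf2. The ratio of srebf1 to srebf2 within a library cancels such shared shifts: its log2 value was -0.21, -0.02, -0.18 and 0.18 in klf1 libraries and 0.75, 0.92, 0.63 and 0.59 in WT libraries. It was thus lower by 0.78 in klf1 hearts with no overlap (two-sided exact permutation p = 0.0286, which is the lowest that the 70 possible assignments can give; adjusted over 4 ratios, p = 0.0381), and leaving out any 1 library kept the difference between -0.86 and -0.72.

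Of the 4 tested elovl members 3 were called higher and 1 lower, where 32.2% of all tested genes were higher and 29.4% lower. For the filter on low counts elovl5 had 3 WT libraries over the minimum and elovl6 had 2, against all 4 klf1 libraries. elovl1b, an elongase of saturated very long chains, had 236, 205, 203 and 205 CPM in klf1 libraries and 127, 107, 109 and 108 CPM in WT libraries (log2 fold change 0.91 ± 0.12, edgeR adjusted p = 3.95e-05). Library 1 was the highest of each group, and the groups did not overlap. elovl5, which lengthens polyunsaturated chains, had 4.43, 2.82, 4.56 and 3.69 CPM in klf1 libraries against 1.38, 1.13, 1.21 and 1.1 CPM in WT libraries (1.67 ± 0.26, adjusted p = 0.000126), again without overlap. elovl6, which takes palmitate on to stearate, had 2.36, 2.63, 2.14 and 2.02 CPM in klf1 libraries and 1.73, 0.756, 1.09 and 1.59 CPM in WT libraries (0.81 ± 0.29, adjusted p = 0.0280), without overlap. The elovl6 call was lost without WT library 2 (0.63), WT library 3 (0.73), klf1 library 1 (0.79) or klf1 library 2 (0.73).

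elovl1a was the exception among the elongases. It had 6.49, 3.42, 4.49 and 4.82 CPM in klf1 libraries and 19.1, 7.81, 5.55 and 6.13 CPM in WT libraries, so WT library 1 stood far above the rest and the groups overlapped. The log2 fold change of -1.01 ± 0.37 (edgeR adjusted p = 0.0305) was -0.44 and not called without that library (adjusted p = 0.141), and the call was also lost without klf1 library 2 (-0.89), klf1 library 3 (-0.97) or klf1 library 4 (-1.01). By library totals elovl1a read -0.29 and was not called. The ratio of elovl1a to elovl1b within a library was lower by 1.76 on the log2 scale in klf1 hearts with no overlap, and by 1.43 without WT library 1 (with all libraries, exact permutation p = 0.0286, adjusted over 4 ratios p = 0.0381). elovl7a, a further elongase, had 2, 2, 3 and 7 counts in klf1 libraries and 0, 2, 4 and 1 counts in WT libraries and was not tested.

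The desaturases gave 1 call. fads2, which desaturates polyunsaturated chains, had 1.62, 2.96, 3.25 and 4.17 CPM in klf1 libraries and 1.38, 0.882, 1.81 and 0.490 CPM in WT libraries (log2 fold change 1.39 ± 0.39, edgeR adjusted p = 0.00888). Its lowest klf1 library lay within the WT range. For the filter on low counts fads2 had 2 WT libraries over the minimum, against all 4 klf1 libraries. scd, a stearoyl-CoA desaturase that makes monounsaturated chains, varied more within a genotype than between them, at 17.9, 26.7, 4.90 and 14.6 CPM in klf1 libraries and 18.2, 46.5, 23.2 and 7.97 CPM in WT libraries. The interval of its log2 fold change, -0.58 ± 0.55, reaches from -1.66 to 0.51. Its copy scdb had 4, 7, 5 and 5 counts in klf1 libraries and 0, 2, 5 and 5 counts in WT libraries and was not tested, and the ratio of scd to scdb overlapped between the genotypes (log2 difference -0.88, exact permutation p = 0.514).

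**Figure D3:**
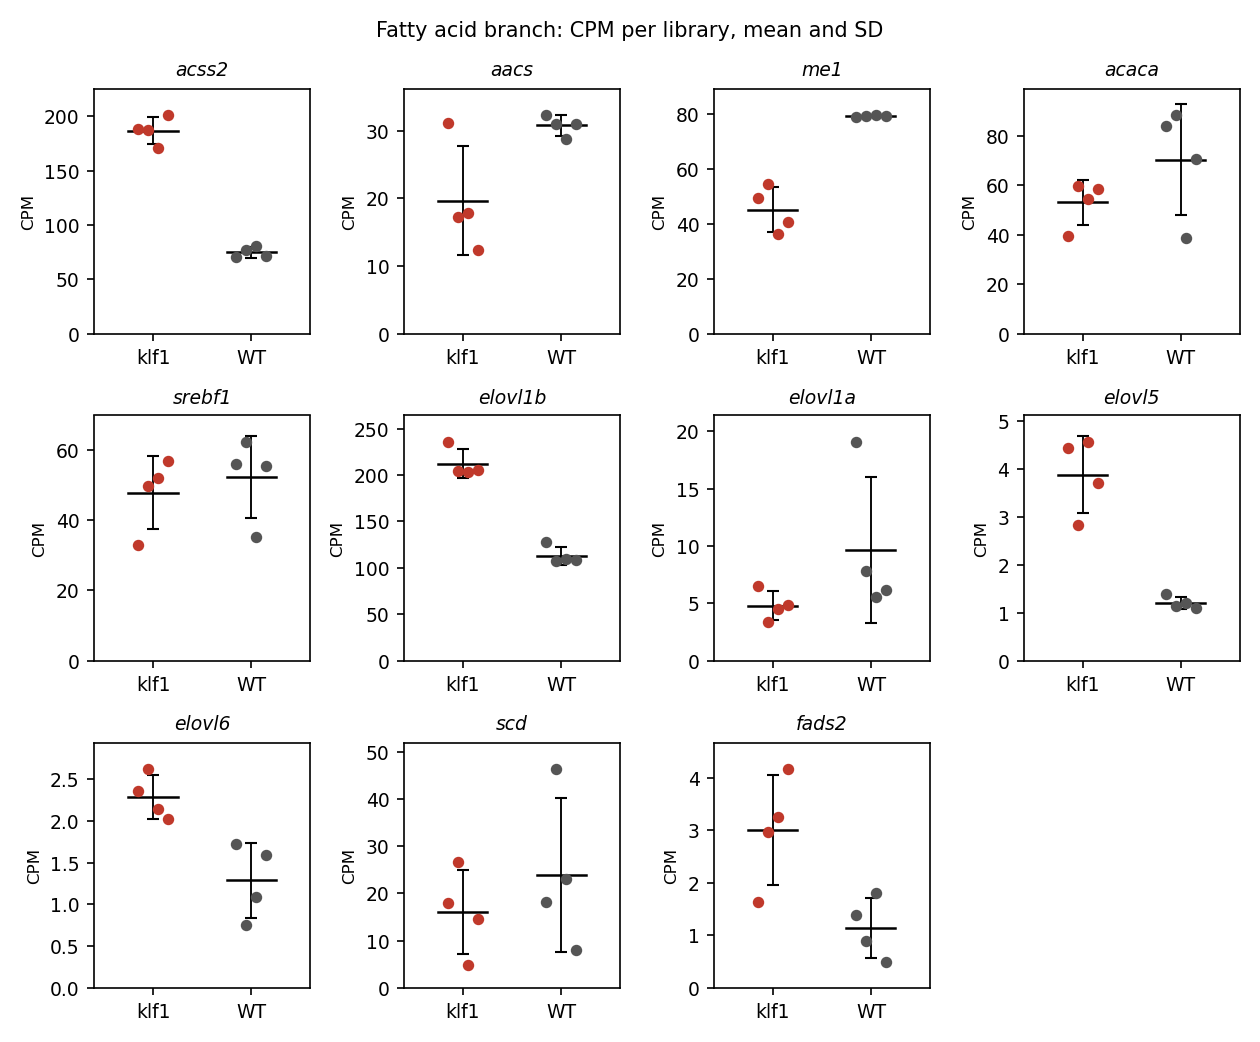
TMM-scaled CPM (y axis, from 0) of the 11 tested fatty acid branch genes in each of the 4 klf1 and 4 WT libraries; points are libraries, horizontal bars the mean and whiskers the SD. acss2, elovl1b, elovl5 and elovl6 separate upward in klf1 hearts and me1 downward, whereas 1 library carries much of the spread of aacs (klf1 library 1), acaca (WT library 3) and elovl1a (WT library 1).

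The scaling of libraries decides the direction of the smaller changes. The TMM factors were 1.226 to 1.317 in klf1 libraries and 0.7495 to 0.8305 in WT libraries, and with library totals alone the median log2 fold change of all genes was 0.75 in place of 0.03. Under library totals 14 of 19 sterol members were called higher and 2 lower, and 6 of 11 fatty acid members higher and 0 lower by edgeR; over all genes 6836 were then higher and 1398 lower, against 3377 and 3084. Scaling shifts all genes by nearly the same amount, so distances from the median gene hardly change by construction and test nothing. On the log2 scale hmgcs1 lay 1.75 below the median gene with TMM and 1.74 below it with library totals. The gene acss2 lay 1.29 above the median gene with both. Of the 17 called members 12 were called in the same direction in every alternative in which they were tested. These are sqlea, lss, nsdhl, ebp, srebf2, insig1, acss2, elovl1b, elovl5 and fads2, all higher, and hmgcs1 and fdft1, both lower. For sqlea this says little, since the filter on counts let it be called only higher. The same holds for lss, ebp and nsdhl in the alternative that asked for 50 counts in at least 4 libraries. No WT library reached that minimum for lss, ebp or nsdhl, so these genes passed through klf1 libraries alone. Of the 12 genes, sqlea, elovl5 and fads2 were not tested in that alternative. In the main filter lss, ebp and elovl5 had 3 WT libraries over the minimum and fads2 had 2, against all 4 klf1 libraries. The klf1 libraries thus helped these genes into the test in which they were called higher.

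**Figure D4:**
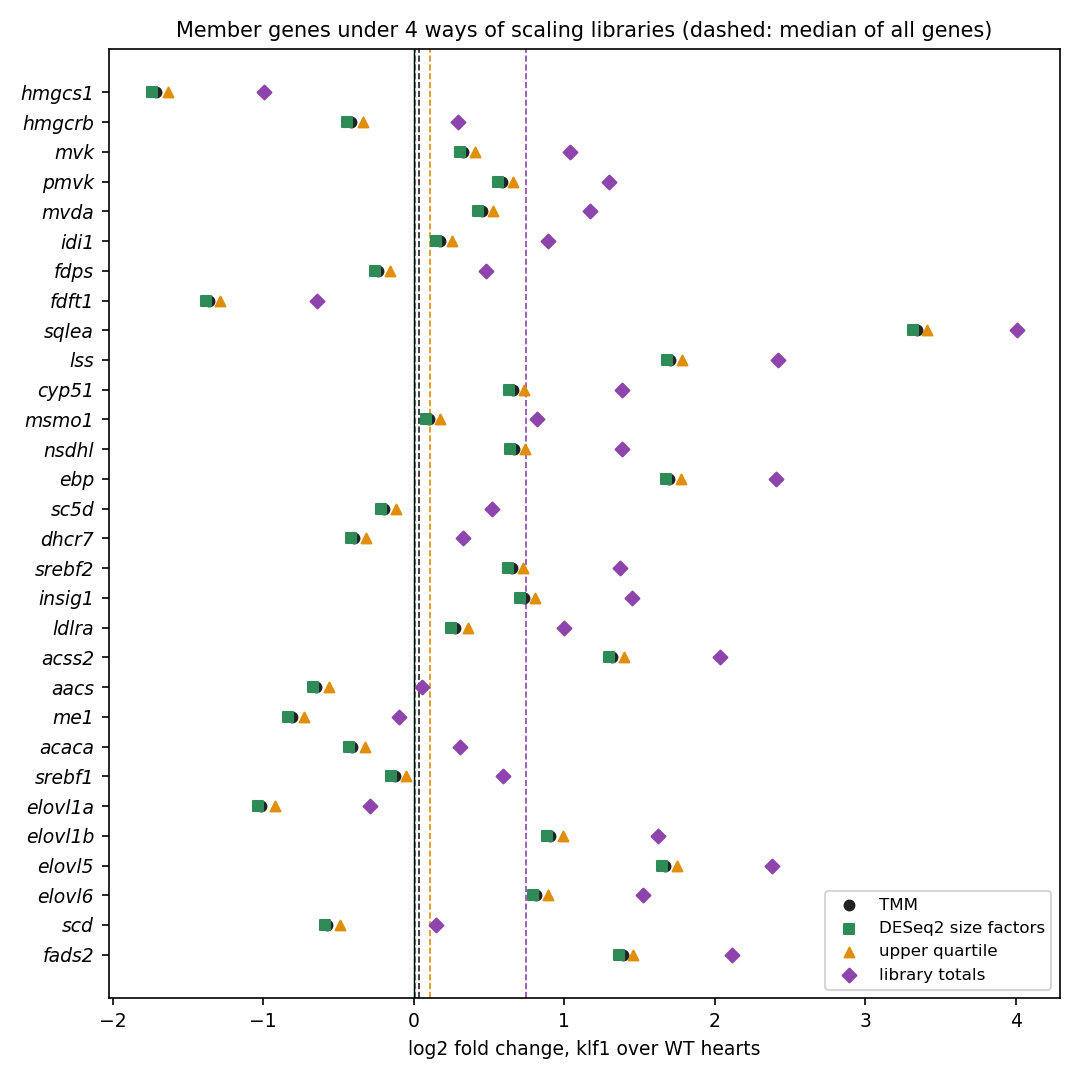
Log2 fold change of klf1 over WT hearts (x axis) for the 30 tested genes under 4 ways of scaling the libraries, marked by symbol; dashed lines give the median of all tested genes under each. Library totals move every gene to the right together with the median, to 0.75, so hmgcrb, fdps, sc5d, dhcr7, aacs, acaca, srebf1 and scd cross 0. The genes hmgcs1, fdft1, me1 and elovl1a stay below 0.

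Of 16 tested genes of a list for other sterol steps, SREBP processing and cholesterol traffic, 9 were higher (56.2%, against 32.2% of all genes) and 2 lower (12.5%, against 29.4%), with a median log2 fold change of 0.51; library totals gave 13 higher and 1 lower. One of the 9, ldlrb, passed the filter on counts through klf1 libraries alone. The LDL receptor adaptors ldlrap1a and ldlrap1b, which pull the receptor into coated pits, averaged 34.5 ± 7.88 and 19.4 ± 5.11 CPM in klf1 hearts, against 3.58 ± 0.84 and 1.80 ± 0.63 CPM in WT hearts (SD, n = 4 each). Their log2 fold changes were 3.26 ± 0.22 and 3.43 ± 0.27 (edgeR adjusted p = 2.05e-07 and 5.79e-07). faxdc2, of the fatty acid hydroxylase family, averaged 9.11 ± 2.14 CPM in klf1 hearts and 27.6 ± 4.17 CPM in WT hearts (-1.59 ± 0.18). The gene of the cytosolic thiolase that feeds hmgcs1, acat2, was higher at 8.80 ± 1.58 CPM in klf1 and 2.99 ± 0.44 CPM in WT hearts, and tm7sf2 and lbr, both sterol C14 reductases, rose by 1.83 ± 0.21 and 0.66 ± 0.14; these 3 were named after their values were seen.

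Of 10 tested genes that use isoprenoids for other ends, 2 were higher (20%, against 32.2% of all genes) and 3 lower (30%, against 29.4%), so the lower share was at that of all genes. The median was -0.18, and library totals gave 7 higher and 2 lower. pdss1 and pdss2, the subunits that make the side chain of coenzyme Q, averaged 10.8 ± 3.41 and 10.1 ± 2.01 CPM in klf1 hearts, against 28.9 ± 3.66 and 24.3 ± 1.67 CPM in WT hearts (log2 fold changes -1.43 ± 0.21 and -1.26 ± 0.15; edgeR adjusted p = 9.45e-05 and 1.90e-05). zmpste24, the protease that trims prenylated lamin A, was higher at 57.7 ± 3.61 CPM in klf1 and 28.8 ± 4.39 CPM in WT hearts (1.00 ± 0.13).

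A mixed list of other genes around fatty acid synthesis had 10 of 16 tested lower (62.5%, against 29.4% of all genes) and 4 higher (25%, against 32.2%). The median was -0.79, and library totals gave 7 lower and 6 higher. Of the lower genes, mcat, mecr, cbr4, me2, me3 and slc25a1a encode mitochondrial proteins, so the fall does not describe the cytosolic branch alone. The other lower genes were acot7, hacd2, hsd17b12a and mid1ip1l, and the higher genes were hacd3, tecrb, mid1ip1b and idh1. The largest of these changes was in slc25a1a, a mitochondrial citrate carrier that exports the carbon for cytosolic acetyl-CoA. It averaged 3.77 ± 1.23 CPM in klf1 hearts and 64.0 ± 5.79 CPM in WT hearts (SD, n = 4 each; log2 fold change -4.08 ± 0.20, edgeR adjusted p = 3.56e-08). The MID1-interacting proteins, related to a regulator of acetyl-CoA carboxylase in mammals, diverged: mid1ip1b averaged 21.3 ± 2.85 CPM in klf1 and 4.72 ± 0.95 CPM in WT hearts (2.17 ± 0.17), and mid1ip1l 13.8 ± 3.18 CPM in klf1 and 97.7 ± 28.5 CPM in WT hearts (-2.82 ± 0.23). As close relatives these 2 could share reads.

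Of 17 tested glycerolipid genes 8 were lower (47.1%, against 29.4% of all genes) and 4 higher (23.5%, against 32.2%), with a median of -0.30; library totals gave 3 lower and 7 higher. lpin1, the phosphatidate phosphatase, averaged 24.7 ± 4.99 CPM in klf1 hearts and 114 ± 14.1 CPM in WT hearts (log2 fold change -2.21 ± 0.16, edgeR adjusted p = 3.60e-07). The acyltransferases agpat2 and agpat3 were also lower, by edgeR, with log2 fold changes of -1.69 ± 0.18 and -1.42 ± 0.19. plin2, a lipid droplet coat protein, read 6.66 ± 1.62 CPM in klf1 and 5.95 ± 1.69 CPM in WT hearts and was not called. The 4 neighbouring lists were also chosen with earlier results of these data known, so their shares beside all genes are description only. These lists were read in the libraries in which the 9 cardiomyocyte markers had a median log2 fold change of -2.44 and the 12 macrophage and granulocyte markers one of 1.95.

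**Figure D5:**
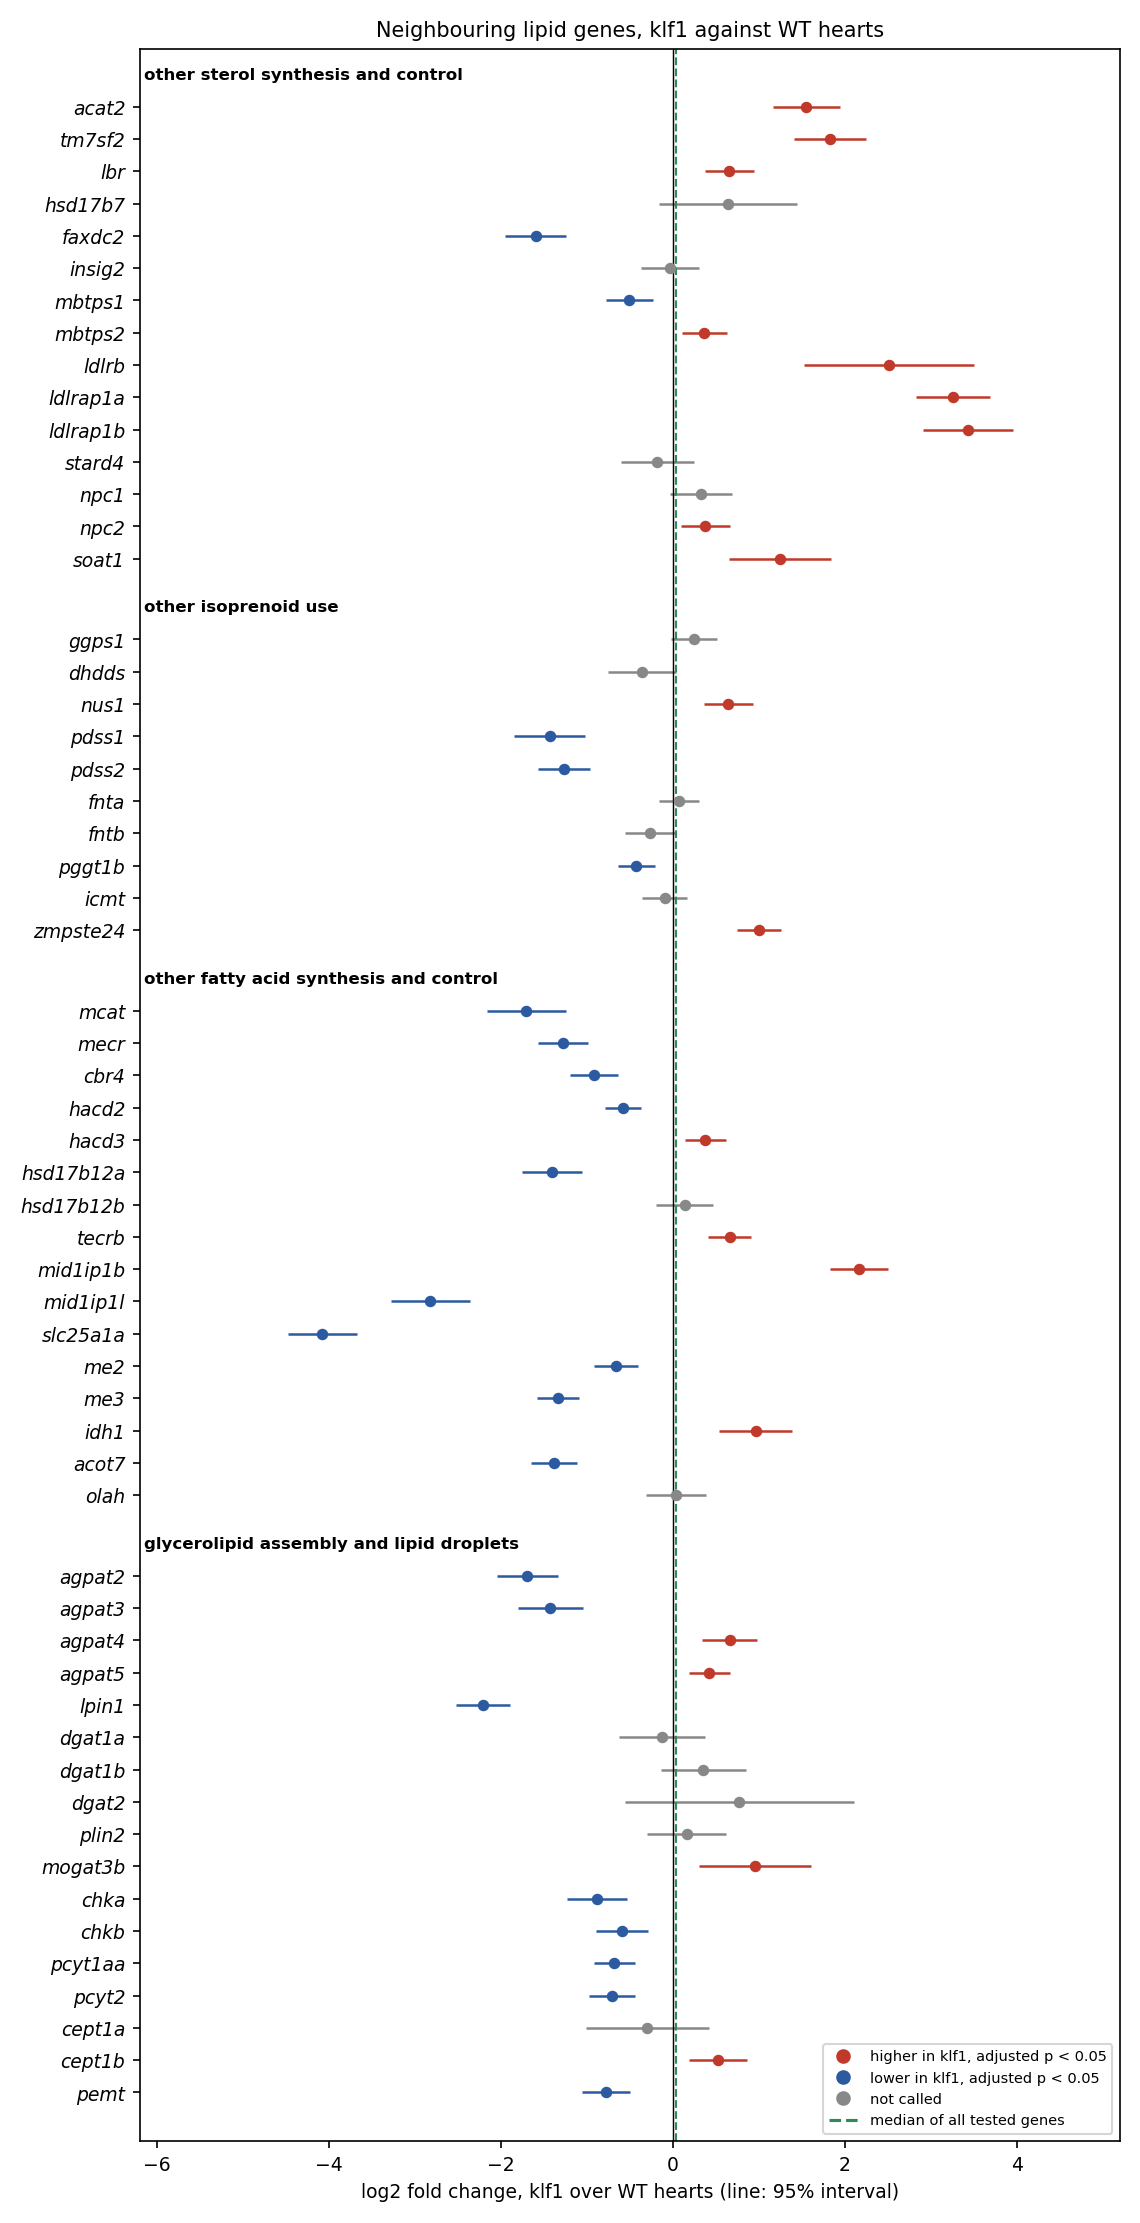
Log2 fold change of klf1 over WT hearts (x axis) for the tested genes of 4 neighbouring lists, without 1 that is not reported here; points are edgeR estimates, lines are 95% intervals, and colour gives the call. The adaptors ldlrap1a and ldlrap1b (3.26 and 3.43) lie farthest right and the citrate carrier slc25a1a (-4.08) farthest left.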

How the data were processed

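The authors deposited raw gene counts, not normalized, per the file headers and the values; 8 of 8 single-library files equalled a column of the joint table, whose symbols were used. Per the labels' protocols, the kit was a stranded mRNA kit from Kapa. The submitters' processing notes name danRer10, Bowtie2 2.2.8 and deepTools 3.1.2 without roles. The aligner of the RNA reads, the counter and its strand option were "not given in the sources used here". No genome or sequence of that build was used, so no coordinates or sequences are given.

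Counts were analysed in R 4.3.3 with edgeR 4.0.16. The filter, filterByExpr by genotype, asks for about 10 counts in a median library in at least 4 libraries. This minimum is 0.904 CPM by library totals, before TMM scaling. The TMM-scaled CPM given above therefore cannot be compared with it directly. The filter was followed by TMM scaling, a robust quasi-likelihood fit and a two-sided F-test of genotype. Standard errors are the fold change over the square root of F, which is approximate. Means are given ± SD over 4 libraries. Ratios within a library used log2 of counts plus 0.5, with exact permutation tests adjusted over the 4 ratios (hmgcra over hmgcrb is among them but not reported, for its WT counts of 0). That ratio also had the lowest possible permutation p. Its inclusion lowered the adjusted p of the srebf1 to srebf2 and elovl1a to elovl1b ratios. A further 2 ratios that were planned could not be computed. Alternatives covered scaling, filter, test (DESeq2 1.42.0, limma-voom of limma 3.58.1) and leaving out each library, and a block on the library number was added after seeing the data. Members, lists and named genes were chosen with earlier results of these data known. The rule for named genes takes every member and gives each library's value for the members with the smallest adjusted p or most counts. From each neighbouring list it takes the 3 genes with the smallest adjusted p. The genes acat2, tm7sf2, lbr, plin2 and all others named from these lists were picked once values had been read. One gene of the neighbouring sterol list counts in that list but is not reported here. Marker lists not given above had 5 of 8 endothelial genes lower (62.5%) and 1 higher (12.5%). They had 2 of 5 erythroid genes lower (40%) and 1 of 4 smooth muscle genes higher (25%). Of all tested genes 29.4% were lower and 32.2% higher, so counts in such short lists say little.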

Additional observations from a re-analysis of the deposited data

Results flagged for a closer look

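Among 60 groups of 4 libraries, 30 genes in each genotype, 4 held a library set apart from the rest of its group by Dixon's criterion, which chance meets in about 1 of 20 groups. elovl1b was highest in klf1 library 1 at 236 CPM, the others being 203 to 205, and highest in WT library 1 at 127 CPM, the others being 107 to 109. elovl1a was highest in WT library 1 at 19.1 CPM, the others being 5.55 to 7.81. pmvk was lowest in klf1 library 4 at 2.14 CPM, the others being 3.55 to 3.84. None of these was tested further.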

How the results depend on the processing

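DESeq2 size factors, TMM without the 50 most counted genes, DESeq2's test, limma-voom and edgeR without robust estimation kept the direction and the call of all 30 tested members. With library totals 14 sterol members were higher, 0 fatty acid members lower, 6836 genes higher and 1398 lower, and the medians were 1.04 (sterol) and 0.59 (fatty acid). Under library totals the log2 fold changes that changed sign were 0.29 (hmgcrb), 0.48 (fdps), 0.52 (sc5d), 0.33 (dhcr7), 0.0559 (aacs), 0.31 (acaca), 0.59 (srebf1) and 0.14 (scd). A filter of 50 counts in 4 libraries left 22 members, with 2 fatty acid genes called higher and medians of 0.15 (sterol) and -0.47 (fatty acid), since thinly counted genes were no longer tested. Upper-quartile factors ended the call of aacs and gave calls to mvda and cyp51. The sterol median was 0.41 with upper-quartile factors, 0.41 with no filter and 0.42 with limma-voom. Leaving out 1 library at a time gave 6 to 8 sterol members higher and 3 to 4 lower, 4 to 5 fatty acid members higher and 1 to 4 lower, and medians of 0.24 to 0.43 (sterol) and -0.28 to 0.00197 (fatty acid). Only 1 fatty acid member, me1, stayed lower without WT library 1 or without klf1 library 2, 3 or 4. ldlra read 1.17 without WT library 1, -0.0159 without WT library 3 and -0.0784 without klf1 library 3, and srebf1 0.00197 without klf1 library 1. The count columns number the libraries 1 to 4 in each genotype, and no label says that a number marks a shared fish, batch or day. Deviations of same-numbered libraries from their genotype means correlated at -0.08, 0.08, -0.19 and 0.09 over 10493 genes, not every library correlated best with its own number, and the numbers were not taken as pairs. With the number as a replicate block, a setting added after seeing the data, 6 sterol members were higher and 3 lower, 4 fatty acid members higher and 3 lower, 3215 genes higher and 2896 lower, and the sterol median was 0.42; elovl6 (0.83, edgeR adjusted p = 0.0540) was the member that lost its call. At this depth the klf1 to WT ratio of summed counts had a 95% counting interval of 0.416 to 3.23 for elovl7a and 0.453 to 2.1 for scdb.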
